A study of Gossypium barbadense and Gossypium hirsutum with 72 samples.

Results

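Small RNA libraries from the shoot apex of Hai1, a Gossypium barbadense line with normal branches, were compared between the squaring stage, when flower buds had formed, and the pre-squaring stage before it. They are 6 of the 36 small RNA libraries and of the 72 samples of the series, with 3 libraries per stage. The pre-squaring plants (miGb2WT) had about 8 leaves and the squaring plants (miGb3WT) had 11 by their labels. Both groups were field-grown plants, with no treatment named, of the same self-fertilised line, and apices about 1 cm long were taken from individual plants. The series holds the same stages and a seedling stage in Xinhai16 (G. barbadense with nulliplex branches, a mutant form in which flowers are borne directly on the main stem), Huazhong 94-3130 (G. hirsutum with normal branches) and another G. hirsutum line with nulliplex branches. Stage, leaf number and date of sampling cannot be told apart, and Hai1 is a single line. The rows read were those named miR followed by a number, either as single names or summed over all names that share the number, here called a family. The table holds 712 such names in 600 families, of which 262 names and 205 families had no read in the 6 libraries, and 287 names and 267 families had enough reads to be tested.

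Plant microRNAs (miRNAs) are short RNAs cut from hairpin precursors that guide an ARGONAUTE protein to matching messenger RNAs, which are then cleaved or translated less. Several ancient families act on transcription factors that set the identity of the shoot apex. In many flowering plants miR156 and the nearly identical miR157 hold SPL genes down in juvenile shoots, and miR172 holds down AP2-type repressors of flowering as shoots mature. Others restrain meristem, organ boundary, auxin response or defence genes.

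Each library held 882258 to 1130844 miRNA reads, and levels are given as reads per 1000000 miRNA reads of the library (RPM), so a level is a share of the miRNA reads and not an amount per cell. Fewer cells of a type and less RNA per cell cannot be told apart in such bulk samples. Known names took 97.5 to 98.2% of these reads and rows predicted by the authors took the rest. The predicted share was 1.86% ± 0.0869 at pre-squaring and 2.41% ± 0.14 at squaring (SD, n = 3), without overlap between groups (two-sided exact permutation test, p = 0.1, the smallest that 3 against 3 allows). Some names and families were present or absent from library to library within a stage: 31 names at pre-squaring and 56 at squaring had no read in 1 replicate and 100 or more in another, as did 22 and 46 whole families. In messenger RNA (mRNA) libraries made from the same RNA, none of 11 marker genes passed an adjusted p of 0.05, beside 1.03% of 46135 genes, and none was at 0. At an unadjusted p under 0.05 there were 4 of the 11, beside 10859 of the 46135 genes. They were GGR of green leaf (2.73 to 6.87 RPKM, reads per kilobase of gene scaled to library size), PCNA2 of dividing cells (19.9 to 32.2), SEP3 of floral organs (0.468 to 2.26) and BRC1 of axillary buds (3.56 to 2.26, without overlap). The other genes of green leaf (CA1 and TROL) and of dividing cells (CYCD1;1 and ORC6) did not reach it. The summed level of 3 green leaf genes was 26.9 to 37.9 RPKM at pre-squaring and 33.1 to 56.9 at squaring, and that of 3 genes of dividing cells 23.7 to 35.8 and 32.5 to 53.6. The part of tissue makeup in the results was not tested.

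A few families supplied most reads at both stages. miR166 held 39.1% of miRNA reads at pre-squaring and 24% at squaring, miR3954 22.7% and 28.5%, and miR157 4.38% and 9.19%. The 10 most abundant families took 74.8 to 78.7% of the reads of a library. Between the stages 50 of the 267 tested families rose and 35 fell at an adjusted p under 0.05 (edgeR quasi-likelihood test with Benjamini-Hochberg adjustment over known and predicted rows). Of all 421 rows of that fit 29.7% were called, 18.1% higher and 11.6% lower. The groups did not overlap for 50.8% of those rows. By the stricter threshold of the study (adjusted p under 0.001 and a log2 fold change over 1 in size, here called a DEM) 3 families were higher and 1 lower at squaring, beside 1.43% of all rows (0.95% higher and 0.475% lower). None of the 4 passed that threshold in any of the 6 fits that left out 1 library, where 61 to 88 families passed 0.05. Of the 242 tested families read at both stages, 30 rose, 30 fell and 182 did not pass the test. Of the 25 read at 1 stage only, 20 rose and 5 fell; these reached the test only through the stage where they were read, so that their calls follow from how they were chosen. The median log2 fold change over the families was 0.14 after the scaling used here (TMM) and 0.26 with plain library totals, which gave 54 rises and 22 falls.

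**Figure D1:**
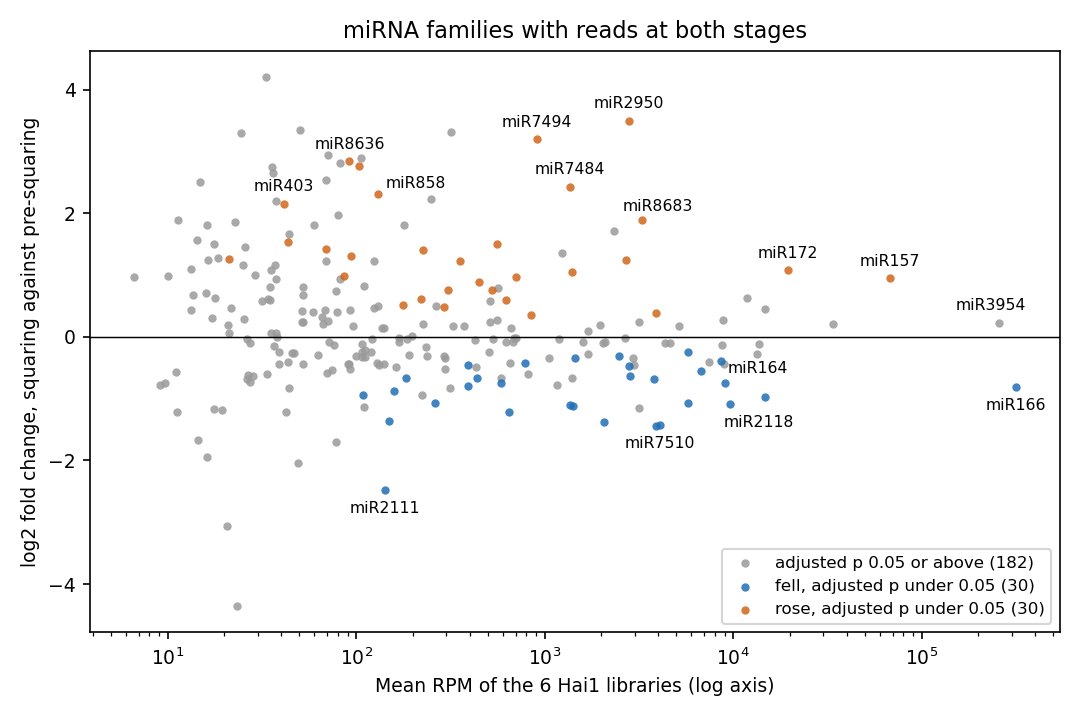
Each point is 1 of the 242 tested families with reads at both stages, by its mean level over the 6 Hai1 libraries (RPM, log axis) and its fitted log2 fold change at squaring against pre-squaring. Of these, 30 rose (orange), 30 fell (blue) and 182 did not pass an adjusted p of 0.05 (grey); miR166 was the most abundant that fell and miR157 the most abundant that rose, and miR172 is drawn with shared reads counted once.

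The miRNAs of phase change and flowering time were higher at squaring where they passed the test. Of the 5 listed (miR156, miR157, miR529, miR535 and miR172), 2 rose, none fell and 3 did not pass. Of all 421 rows of the fit, 18.1% were higher and 11.6% lower. The median log2 fold change of the list was 0.95, which is the value of miR157 itself, beside 0.14 over all families. Whether this list or any of those below was called more often than all rows was not tested. miR157 stood at 49119, 42792 and 39413 RPM in the pre-squaring libraries and at 80306, 93907 and 101566 in the squaring libraries. Every squaring library lay above every pre-squaring library, and the family rose 2.1-fold (log2 fold change 0.95, SE 0.11, adjusted p = 0.0041). Nearly all of its reads carried the name miR157a-5p (0.97, adjusted p = 0.0041). The relative miR156 was read at 8646, 7189 and 7199 RPM and then at 10561, 10293 and 9289, which did not overlap but differed by 0.28 on the log2 scale (SE 0.14, adjusted p = 0.22). With plain library totals in place of TMM that difference was 0.39 with an adjusted p of 0.046. The names read were miR156k and a passenger-arm name, miR156c-3p, whose levels overlapped between stages (163 ± 13.6 to 176 ± 16.1 RPM). With miR156 and miR157 summed the change was 0.87 (adjusted p = 0.0048).

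miR172 rose as well, and its size depended on how its names were counted. In squaring replicates 1 and 3 the names miR172a and miR172e-3p held nearly the same count (27426 and 27420.2 RPM in replicate 1), while in the other 4 libraries miR172e-3p had 0 to 7.63 RPM. Over the series the 2 names lay within 2.57% of each other in all 7 libraries with more than 200 reads of both. Counted once, the family stood at 13279, 13271 and 9262 RPM at pre-squaring and at 27426, 25516 and 28751 RPM at squaring. The groups were well apart, with a log2 fold change of 1.08 (SE 0.15, adjusted p = 0.0063), and adjusted p stayed between 0.007 and 0.035 with any 1 library left out. The plain sum of names gave 1.82 (adjusted p = 0.014) and lost the call without pre-squaring replicate 2, pre-squaring replicate 3 or squaring replicate 1 (highest adjusted p 0.059). miR535, a relative of miR156, stood at 14164 ± 1859 to 12733 ± 1069.7 RPM and its groups overlapped (adjusted p = 0.19). miR529, another relative, had no read in 2 pre-squaring libraries and 25.2 RPM in the other, against 61, 57.8 and 70.3 RPM at squaring (adjusted p = 0.4); its name changed with the stage from miR529 to miR529-5p.

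**Figure D2:**
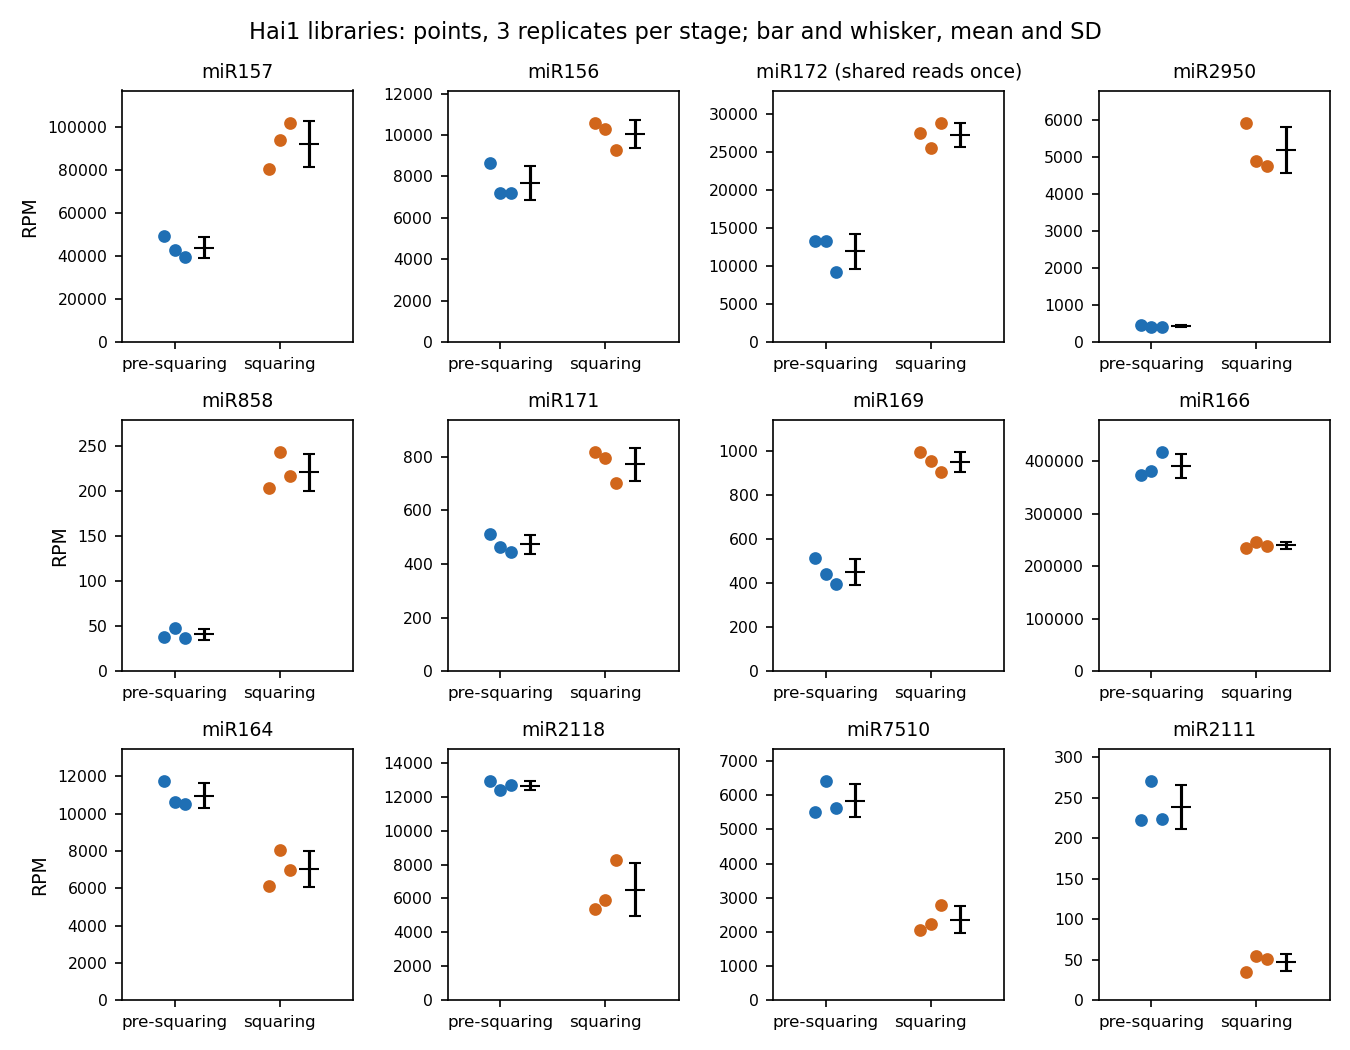
Levels (RPM) of 12 families in the 3 pre-squaring (blue) and 3 squaring (orange) libraries of Hai1, with the mean and SD of each stage beside the points. In all 12 panels the stages do not overlap, as in 50.8% of all 421 rows of the fit. The 12 families were picked with these results known. miR156 is the panel whose change did not pass the test.

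The meristem and organ boundary families moved in both directions. Of 4 tested members, miR171 rose, miR164 and miR166 fell and miR165 did not pass, with a median log2 fold change of -0.30. miR166, which restrains the HD-ZIP III factors of the meristem and upper leaf side, stood at 374120, 381126 and 416694 RPM and then at 234664, 246225 and 237661. All pre-squaring libraries lay above all squaring libraries, and the family fell 1.63-fold (log2 fold change -0.82, SE 0.11, adjusted p = 0.0056). Both of its abundant names fell, miR166a-3p (-0.79, adjusted p = 0.0057) and the star-arm name miR166d-5p (-0.95, adjusted p = 0.012). miR165, which has nearly the same sequence and targets, stood at 435, 600.2 and 773 RPM and 409, 1119 and 623 RPM, with wide spread and overlap.

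miR164, which acts on the CUC-type NAC genes of organ boundaries, stood at 11738, 10621 and 10549 RPM before and 6126, 8046 and 6979.8 RPM at squaring. It fell 1.56-fold without overlap (log2 fold change -0.75, SE 0.13, adjusted p = 0.011), and the adjusted p was 0.051 without squaring replicate 1. miR171, which acts on HAM-type GRAS genes of the meristem, went the other way, from 511, 463 and 445 RPM to 817, 795 and 703 RPM (log2 fold change 0.60, SE 0.14, adjusted p = 0.027). Leaving out squaring replicate 3 kept this call (adjusted p = 0.025) and leaving out any other library lost it (up to 0.11). Of its names the less abundant rose: miR171b-3p went from 57.2, 49.4 and 53.2 RPM to 177, 215 and 197 RPM (log2 fold change 1.79, SE 0.16, adjusted p = 0.0014), and miR171b from 419.8 ± 31.5 to 575 ± 67.5 RPM (adjusted p = 0.17).

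Of the 4 auxin families 1 rose and 3 did not pass, with a median log2 fold change of 0.23. miR390, which triggers the tasiRNAs against ARF3-type genes, stood at 3639, 2895 and 3113 RPM and then at 4311, 4381 and 4920.3. It rose 1.41-fold (log2 fold change 0.38, SE 0.10, adjusted p = 0.043), and it passed in the fit without pre-squaring replicate 1 but in none of the other 5 leave-one-out fits (adjusted p 0.017 to 0.19). miR167, a regulator of ARF6 and ARF8, stood at 32283, 27841 and 30062 RPM and at 35534, 37547 and 40494 RPM. These did not overlap, with a log2 fold change of 0.22 (adjusted p = 0.12; 0.33 and 0.044 with plain library totals). Nearly all its reads were named miR167a-5p in pre-squaring replicates 2 and 3 and miR167h in the other 4 libraries. miR160, which acts on ARF10-type genes, stood at 4636 ± 474 to 5630.4 ± 782 RPM and miR393, which acts on TIR1-type auxin receptors, at 46 ± 11.2 to 58.4 ± 9.86 RPM, and both overlapped (adjusted p = 0.54 and 0.64). Within miR160 the name miR160a-3p rose (2468 ± 368 to 3766 ± 147 RPM, adjusted p = 0.034).

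None of the 3 families of leaf growth and cell proliferation passed. miR159, which acts on GAMYB-like genes, stood at 1575 ± 89.1 to 1598 ± 117 RPM (adjusted p = 0.69). miR319, which acts on TCP genes, stood at 338 ± 58.8 to 255 ± 78.4 RPM (adjusted p = 0.24). Its main name, miR319b, fell from 240.4, 385 and 357 RPM to 170.7, 165.3 and 188 RPM (adjusted p = 0.013), and miR319a-3p had no read in 2 pre-squaring libraries and in squaring replicate 2 (adjusted p = 0.55). For miR396, which acts on the GRF growth factors, the sum was 485 ± 19.6 to 634 ± 64.7 RPM (adjusted p = 0.096), although 1 of its names rose and another fell. miR396d was at 271, 285 and 305 RPM at pre-squaring and had no read at squaring, and miR396b-3p went from 227, 178 and 189.6 RPM to 476, 585 and 593 RPM.

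Families that regulate the silencing machinery itself split. miR403, which acts on AGO2, rose from 13.4, 22.1 and 7.47 RPM to 79.6, 62.4 and 63.5 RPM (log2 fold change 2.15, SE 0.45, adjusted p = 0.019). Its squaring libraries were all far above the pre-squaring ones, but the call held in 3 of 6 leave-one-out fits (adjusted p 0.019 to 0.076; lost without pre-squaring replicate 1, squaring replicate 1 or squaring replicate 2). miR162, which acts on DCL1, fell from 698, 682 and 766 RPM to 393.5, 487 and 504 RPM without overlap (log2 fold change -0.75, SE 0.11, adjusted p = 0.007). The fall of this sum lay in 1 arm: miR162a-5p went from 603 to 306 RPM (adjusted p = 0.0037). The other arm, miR162a-3p, did not fall and went from 112 to 155 RPM (adjusted p = 0.073). Which arm acts on DCL1 was not tested, so the sum does not show that the regulator of DCL1 fell. miR168, which acts on AGO1, stood at 13831 ± 1003 to 13672 ± 1894 RPM and overlapped (adjusted p = 0.71).

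Of 5 tested families listed for NBS-LRR or MYB targets, 2 rose, 2 fell and 1 did not pass. Their median log2 fold change was -0.11. The 2 that fell, miR2118 and miR482, are related and act on NBS-LRR disease resistance genes. miR2118 stood at 12909, 12376 and 12687 RPM and then at 5354, 5938 and 8287 RPM, a 1.94-fold fall (log2 fold change -1.09, SE 0.12, adjusted p = 0.004). miR482 went from 854, 865 and 911 RPM to 353, 407.7 and 473 RPM (log2 fold change -1.21, SE 0.09, adjusted p = 0.0016). In both, every pre-squaring library lay above every squaring library. miR858 and miR828, which act on MYB genes, many of them regulators of pigment synthesis, rose instead. miR159, which acts on GAMYB-like genes, did not pass, as given above. miR858 stood at 38.2, 48.4 and 37.4 RPM and then at 203, 243 and 216 RPM, which was 5.35-fold higher (log2 fold change 2.31, SE 0.18, adjusted p = 0.0016). miR828 had no read in the pre-squaring libraries and 18.6, 25.7 and 26.1 RPM at squaring, at least 23.8-fold higher when 3 reads over the pre-squaring group are taken as the floor (adjusted p = 0.0063). It reached the test only through the squaring libraries. miR1448, the other tested member of this list, overlapped between the stages (107 ± 7.66 to 108 ± 33.1 RPM, adjusted p = 0.79).

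The 2 families listed for NF-YA and F-box targets, miR169 and miR394, rose. The sum of miR2111, a family that also acts on an F-box gene and is described with the nutrient families, fell. miR169, which acts on NF-YA subunits, stood at 513, 441 and 396.9 RPM and at 995, 956 and 904 RPM (log2 fold change 0.97, SE 0.14, adjusted p = 0.0068), and both of its arms rose. miR394, which acts on an F-box gene of the shoot meristem in Arabidopsis, went from 28.6, 21 and 14 RPM to 61, 75.3 and 62.3 RPM (log2 fold change 1.53, SE 0.34, adjusted p = 0.023). That call held in 1 of 6 leave-one-out fits, the one without pre-squaring replicate 1 (adjusted p 0.031 to 0.08).

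Among 5 tested families of nutrient and copper responses, 2 fell, 1 rose and 2 did not pass, with a median log2 fold change of -0.60. miR2111, a mobile miRNA that acts on an F-box gene of nodulation control in Lotus, stood at 222, 270.2 and 224 RPM and then at 34.5, 54.2 and 51 RPM. It fell 5.13-fold without overlap (log2 fold change -2.47, SE 0.22, adjusted p = 0.0018). Nearly all of this lay in 1 name: miR2111b-3p went from 165.04, 219 and 163 RPM to no read (adjusted p = 0.0013), while miR2111a-5p stood at 56.5 ± 4.64 to 46.6 ± 10.6 RPM and did not pass (adjusted p = 0.34). The sum of miR408, a family that acts on copper proteins, fell from 319.6, 387 and 331 RPM to 120.3, 217 and 202 RPM (log2 fold change -1.06, SE 0.24, adjusted p = 0.026). That call was lost in 4 of 6 leave-one-out fits, those without any 1 pre-squaring replicate and without squaring replicate 3 (adjusted p 0.033 to 0.086). Of its arms miR408-5p fell from 300 to 142 RPM (adjusted p = 0.0065). The other, miR408-3p, went from 45.6 to 37.5 RPM and did not pass (adjusted p = 0.75). Which arm of miR2111 or miR408 acts on the targets named was not tested. miR827, a phosphate family, was at 12.4, 12.6 and 10.3 RPM and rose to 27.4, 36.7 and 27.2 RPM (log2 fold change 1.26, SE 0.29, adjusted p = 0.027), and no leave-one-out fit kept the call (adjusted p 0.067 to 0.11). miR399, which acts on PHO2, stood at 75.8 ± 26 to 145 ± 11.6 RPM (adjusted p = 0.11), and miR397, which acts on laccases, at 39.2 ± 4.99 to 27.9 ± 2.5 RPM (adjusted p = 0.1). miR395 and miR398 were read but too low to test.

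Of 10 families listed as restricted to cotton or to few plant lineages, 2 rose, 2 fell and 6 did not pass, with a median log2 fold change of 0.03. miR2950 gave the largest fitted change of the called families with reads in all 6 libraries. It stood at 456, 412 and 409.9 RPM and then at 5897, 4885 and 4749 RPM, 12.2-fold higher (log2 fold change 3.50, SE 0.16, adjusted p = 0.000922). miR7484 went from 318.6, 458 and 403.4 RPM to 1955, 1698 and 3335 RPM (log2 fold change 2.43, SE 0.27, adjusted p = 0.0035). In both cases every squaring library lay far above every pre-squaring library. miR3476 fell from 7086, 7479 and 8366 RPM to 3752, 4302 and 3718 RPM (log2 fold change -1.07, SE 0.13, adjusted p = 0.0045), and miR2947 from 2649 ± 36.4 to 2304 ± 78.3 RPM (log2 fold change -0.31, SE 0.07, adjusted p = 0.02), a change that 3 of 6 leave-one-out fits lost, those without pre-squaring replicate 1, pre-squaring replicate 3 or squaring replicate 1 (adjusted p 0.037 to 0.084). miR3954, the second most abundant family, stood at 228615, 245173 and 207191 RPM and 324259, 283808 and 248034 RPM, without overlap but with a fitted change of 0.23 (SE 0.17, adjusted p = 0.44). miR7502 ranged from 329 to 1660.9 RPM within the pre-squaring libraries and from 2754 to 4177 RPM at squaring, and did not pass (adjusted p = 0.11).

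Several families outside these lists, whose targets are not described here, were named for their abundance or for a difference between lines. miR894 stood at 20419.6, 16969 and 19654 RPM and then at 10021, 11369 and 9945 RPM (log2 fold change -0.97, SE 0.13, adjusted p = 0.0063). miR7510, with 1 name past the DEM threshold (miR7510a, adjusted p = 0.000905), went from 5497, 6406 and 5623 RPM to 2053, 2225 and 2799.6 RPM (log2 fold change -1.43, SE 0.09, adjusted p = 0.0011). Neither overlapped between the stages. miR8683 rose from 1189.6, 1634 and 1065 RPM to 5069, 4672 and 5955 RPM (log2 fold change 1.90, SE 0.17, adjusted p = 0.0018). miR7505 stood at 11888 ± 1952 to 17657 ± 3331 RPM and did not pass (adjusted p = 0.087). In miR8175 a single library set the mean, since squaring replicate 2 held 28442 RPM and the other squaring libraries 8229 and 7228 RPM; the fitted change was 0.62 with all libraries and -0.34 without that one (adjusted p = 0.57 and 0.23).

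Some of these family calls also rested on the settings. With all 36 libraries of the series in 1 fit, miR164 (adjusted p = 0.17), miR2118 (0.13), miR858 (0.33), miR894 (0.17), miR171, miR390, miR394, miR403, miR408, miR827 and miR2947 no longer passed, and without a filter on low counts miR162 (0.092), miR828 (0.086), miR171, miR390, miR394, miR403, miR408, miR827 and miR2947 did not.

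By single name, 58 rose and 44 fell at an adjusted p under 0.05 (32.2% of all 441 rows, 19% higher and 13.2% lower), and 4 names were higher and 4 lower by the DEM threshold (2.27% of all rows, 1.13% higher and 1.13% lower). None of these 8 names passed that threshold with any 1 library left out (lowest adjusted p 0.0019), although all 8 stayed under 0.05. The higher names were miR2950, miR1446, miR7756-3p and miR482d, and the lower ones miR7510a, miR6466-5p, miR482b and miR396d. In 6 of the 8 a whole group was at 0, so that these reached the test only through the other stage. miR482b was at 854, 865 and 911 RPM and had no read at squaring, and miR482d was at 353, 407.7 and 473 RPM at squaring and had no read before. No library held both names, and their sum fell. In the same way miR7484d was read at pre-squaring only and miR7484h at squaring only, as were miR393-3p and miR393a-3p. Of 42 names read in all 3 libraries of a stage and in none of the other, 14 belonged to a family that was still read at the other stage. Among 24 families with 2 or more tested names, 5 had a name that rose and a name that fell: miR393, miR396, miR477, miR482 and miR7484.

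**Figure D3:**
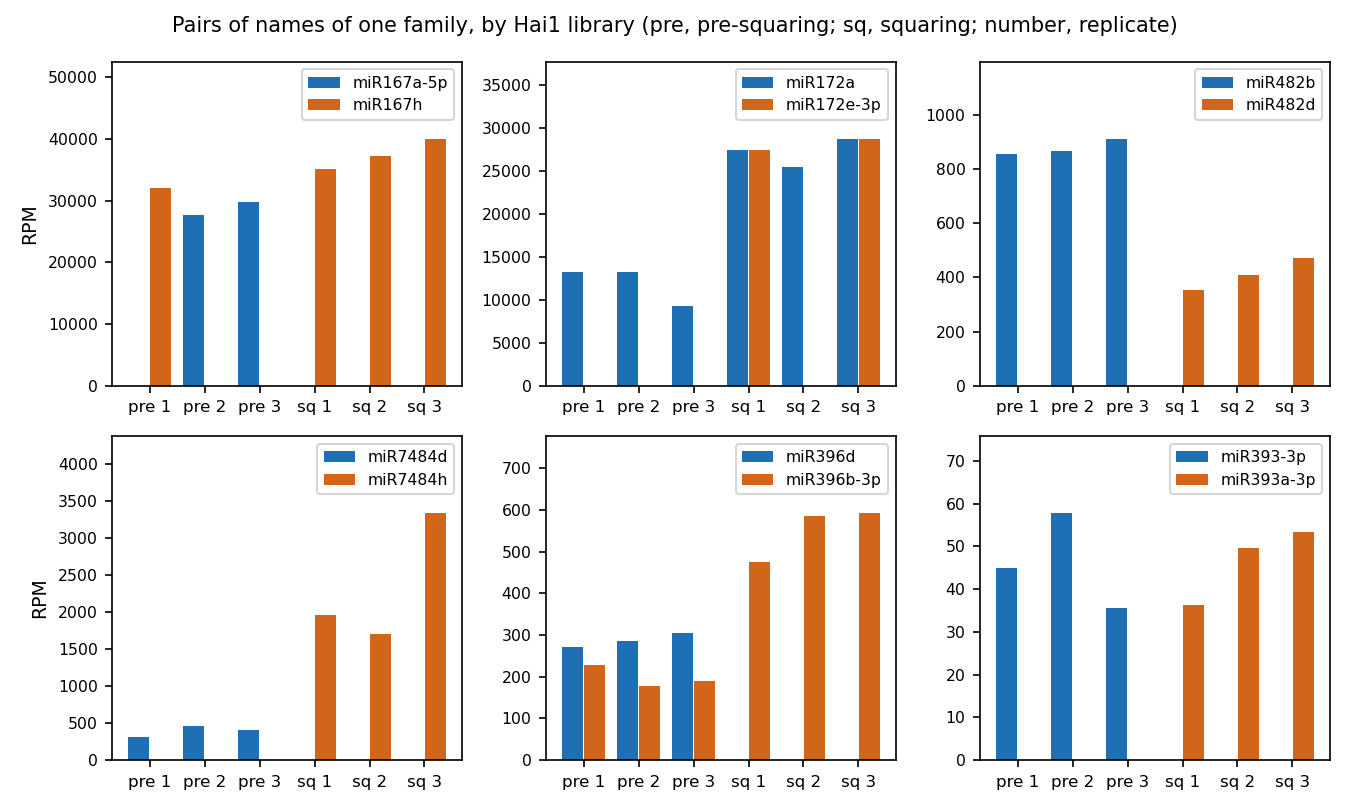
Levels (RPM, linear axis from 0) of 6 pairs of names in the 6 Hai1 libraries, 3 at pre-squaring and 3 at squaring. miR167a-5p and miR167h are read in different replicates of the pre-squaring stage. miR172a and miR172e-3p hold counts within 2.57% of each other in squaring replicates 1 and 3. miR482, miR7484 and miR393 change names with the stage. In miR396 the name miR396d has no read at squaring, while miR396b-3p is read at both stages.

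Of the 42 names read at 1 stage only, the other 28 belonged to families with no read at all at the other stage. miR1446 had no pre-squaring read and stood at 492, 471 and 493 RPM at squaring, at least 496-fold higher (adjusted p = 0.000922). It had a mean of 139 RPM in Hai1 seedlings, so its reads were not confined to squaring. miR7756 also had no pre-squaring read and stood at 429, 417 and 489.7 RPM at squaring, at least 452-fold higher (adjusted p = 0.000922). The replicates of each lay close together at squaring. miR6466 was read at 339.6, 376 and 363 RPM before and not at squaring, at least 371-fold lower (adjusted p = 0.000922). miR1159 stood at 1292, 1423 and 1848 RPM and then had no read, at least 1579-fold lower (adjusted p = 0.0016). Replicates of 1 stage also parted in this way, in the 22 and 46 families given above, and the part of read naming in them was not tested. All 4 kept an adjusted p under 0.05 with any 1 library left out. As they reached the test only through the stage where they were read, these p-values lend no support.

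Where the 5p and 3p arms of a precursor were both tested, their log2 fold changes had the same sign in 3 of 7 precursors. Both arms of miR169b rose, by 1.33 and 0.51 on the log2 scale (adjusted p = 0.0052 and 0.029). In miR408 the 5p arm fell (-1.18, adjusted p = 0.0065) and the 3p arm did not pass (-0.36, adjusted p = 0.75). In miR2949a the rare 3p arm rose (1.60, adjusted p = 0.026) while the abundant 5p arm gave -0.04, adjusted p = 0.82.

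The stage change of Hai1 was next set against that of Xinhai16, the nulliplex line of the same species, with a test of the difference between the 2 changes. Of 303 known families tested, 8 changed more upward and 9 more downward in Hai1 by the DEM threshold (3.89% of all 540 rows, 2.04% upward and 1.85% downward), and 27 and 20 at an adjusted p under 0.05 (11.7%, with 6.85% upward and 4.81% downward). With plain library totals the latter split was 40 and 15, and the median difference over the families moved from 0.45 to 0.69. In Xinhai16 itself 6 families rose and 15 fell of 209, beside 15 higher and 22 lower of all 344 rows of that fit. miR157, which rose in Hai1, went from 16447, 29964 and 26034 RPM to 5111, 7485 and 4816 RPM in Xinhai16, with a log2 fold change of -1.80 there (adjusted p = 0.022). The 2 changes were opposite in sign (difference 2.84, SE 0.27, adjusted p = 0.000133). miR156 fell in Xinhai16, from 4956, 9411 and 8092 RPM to 1035, 1703 and 1089 RPM (difference 2.67, SE 0.29, adjusted p = 0.000267). miR172, counted once, went from 8584 ± 2011 to 4000.2 ± 1776 RPM there (difference 2.03, SE 0.34, adjusted p = 0.0032).

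miR166 moved in opposite directions in the 2 lines. It fell in Hai1 and rose in Xinhai16, from 443739, 416584 and 400698 RPM to 618396, 564643 and 615696 RPM (difference -1.51, SE 0.18, adjusted p = 0.000318). miR164 differed likewise (12754 ± 2416 to 13824 ± 1920.2 RPM in Xinhai16; difference -1.06, SE 0.26, adjusted p = 0.025), but not without squaring replicate 1 or 3 of Hai1 (adjusted p = 0.071 and 0.067). miR2950 gave the largest difference among the called families read in all 4 groups: it stood at 519, 591 and 480.3 RPM and then at 420.2, 547 and 375 RPM in Xinhai16 (difference 3.57, SE 0.20, adjusted p = 2.73e-06). miR8683 (difference 2.89, SE 0.32, adjusted p = 0.000267), miR7484 (difference 2.41, SE 0.32, adjusted p = 0.000707) and miR7495 (difference 1.95, SE 0.21, adjusted p = 0.000236) also changed more upward in Hai1. miR7510 (difference -2.15, SE 0.18, adjusted p = 6.4e-05), miR2089 (difference -1.56, SE 0.18, adjusted p = 0.000269), miR1516 (difference -1.42, SE 0.16, adjusted p = 0.000269) and miR3476 (difference -1.31, SE 0.15, adjusted p = 0.000309) changed more downward. All of these but miR164 kept an adjusted p under 0.05 in each of the 12 fits that left out 1 library. With all 36 libraries in 1 fit miR2089 lost its call (adjusted p = 1). miR169 (1.27), miR390 (1.08) and miR162 (-1.17) passed 0.05 as well, but not without a filter on low counts. With 1 line per branch type, the branch type and the line cannot be told apart.

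**Figure D4:**
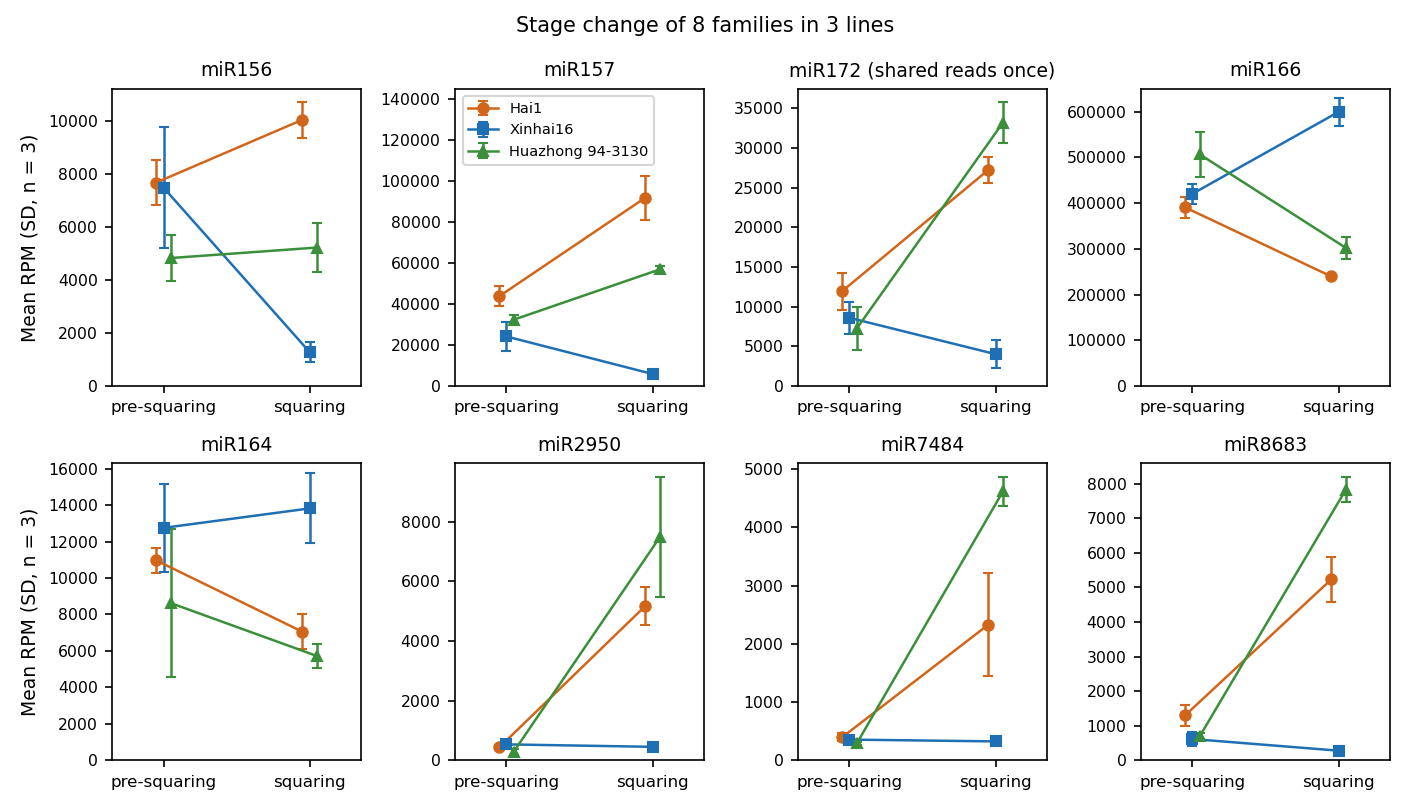
Mean level (RPM, with SD, n = 3) of 8 families at pre-squaring and squaring in Hai1 (circles), Xinhai16 (squares) and Huazhong 94-3130 (triangles). The mean RPM of Hai1 and Huazhong 94-3130 moves in the same direction in all 8 panels. For miR156 the change did not pass the test in Hai1 and the mean moved little in Huazhong 94-3130. These directions are those of RPM, without the TMM scaling of the tests. The Xinhai16 means stay close to level (miR2950, miR7484, miR164) or move the other way. All 8 families had passed the test of a difference from Xinhai16 (adjusted p under 0.05), so the contrast with that line follows from their choice. miR172 is drawn with shared reads counted once.

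Against Huazhong 94-3130, the normal-branch line of the other species, few changes differed. Of 345 known families tested, 1 changed more upward and 2 more downward in Hai1 by the DEM threshold (0.66% of all 606 rows, 0.33% in each direction), and 6 and 8 at an adjusted p under 0.05 (2.64%, with 1.32% in each direction). With plain library totals the latter split was 1 and 14, and the median difference moved from 0.01 to -0.44, so directions here rest on the scaling. This comparison and that with Xinhai16 share the 6 Hai1 libraries. In both, families with a group at 0 are among those past the DEM threshold, and their p-values lend no support. miR2950 rose in Huazhong 94-3130 from 167.9, 320.1 and 370.5 RPM to 6237, 9810.4 and 6428 RPM (difference -0.65, SE 0.33, adjusted p = 0.41). miR166 went from 506763 ± 48854 to 302050 ± 24770.2 RPM in that line (difference 0.51, SE 0.20, adjusted p = 0.27), and miR172 counted once from 7236 ± 2671 to 33189 ± 2562 RPM (difference -0.52, SE 0.37, adjusted p = 0.64). A missed threshold does not show that these changes were equal.

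Of the called families with reads in all 4 groups, miR396 differed most from Huazhong 94-3130, at 121, 188 and 143 RPM and then 1162, 1615 and 1166 RPM in that line (difference -2.26, SE 0.27, adjusted p = 0.0012). Hai1 had shown no call for it. miR157 (difference 0.72, SE 0.13, adjusted p = 0.021), miR167 (difference 0.78, SE 0.16, adjusted p = 0.035) and miR390 (difference 1.36, SE 0.27, adjusted p = 0.027) changed more upward in Hai1, but miR157 kept the call in 4 of 12 leave-one-out fits, miR167 in 2 and miR390 in 1 (highest adjusted p 0.18, 0.24 and 0.098). With plain library totals these 3 differences were 0.25, 0.33 and 0.92 and none passed (adjusted p = 0.54, 0.46 and 0.3).

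A pair of genes of the same RNA were read in the mRNA libraries, in which 477 of 46135 genes (1.03%) passed an adjusted p of 0.05. SEP3, a MADS-box gene of floral organs, stood at 1.01, 0.111 and 0.278 RPKM at pre-squaring and at 2.7, 2.61 and 1.47 RPKM at squaring. The squaring libraries were all higher, with a log2 fold change of 2.30 (SE 0.60, adjusted p = 0.085 in edgeR and 0.0064 in DESeq2). HB-8, an HD-ZIP III gene of the class that miR166 acts on, stood at 3.98, 4.8 and 4.34 RPKM and at 2.83, 2.9 and 4.48 RPKM, which overlapped (log2 fold change -0.32, SE 0.24, adjusted p = 0.45).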

How the data were processed

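Shoot apices of 4 cotton lines at 3 stages gave 36 small RNA and 36 mRNA libraries, and the 6 small RNA and 6 mRNA libraries of Hai1 at pre-squaring and squaring are described here. The deposited miRNA table holds raw read counts per name and library. The authors trimmed adaptors, removed reads with N, adaptor fragments and empty reads, aligned reads to a G. hirsutum genome with settings for perfect matches (SOAP2), named reads by BlastN against miRBase and predicted further miRNAs with Mireap. How reads that match several names were assigned is not given in the sources used here. The authors' mRNA files hold uniquely aligned read counts per gene (tested) and RPKM (printed). The total of the miRNA table is not the full depth of a library, which was not used here.

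Counts were tested with edgeR 4.0.16 (R 4.3.3; TMM, filterByExpr with a minimum count of 10, quasi-likelihood F test) over all names, or over families and predicted rows, with Benjamini-Hochberg adjustment. Samples were grouped by their labels; the labels give replicates and the study biological repeats, and p-values measure the spread between these 3 samples. Differences between lines were tested as an interaction over 12 libraries. SE is the absolute log2 fold change divided by the square root of F. DESeq2 1.42.0, limma 3.58.1 on log2(RPM + 1), other filters, scalings and family definitions and leaving out each library were alternatives; counting shared names once in the differences between lines was chosen after seeing the data. Intervals and floors (3 counts) cover counting error only, and reads carry no molecular identifiers. Named families were the listed ones at 10 RPM or more in a group, the DEMs, the 10 most abundant and those that differed between lines, and named single names were DEMs, the main names of these families and those the study discusses (miR166c, miR166i and miR156i-3p had no read here). Members and lists were chosen with earlier results of these data known. The tests were checked on simulated counts.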

Additional observations from a re-analysis of the deposited data

Results flagged for a closer look

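The stage changes of 17 families differed between Hai1 and Xinhai16 by the test of the difference itself. With reads in all 4 groups, the log2 change of Hai1 minus that of Xinhai16 was 2.67 for miR156, 2.84 for miR157, 3.57 for miR2950, 2.41 for miR7484, 1.95 for miR7495 and 2.89 for miR8683. It was -1.51 for miR166, -1.42 for miR1516, -1.56 for miR2089, -1.31 for miR3476 and -2.15 for miR7510.

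The other 6 had a group with no read, so the adjusted p of the difference is given in place of its size. They reached the test only through the groups where they were read, so these p-values are listed but lend no support. miR1159 (0.000126), miR7809 (0.000167) and miR823 (0.000131) were lost at squaring in Hai1 and stood at 1543, 53.6 and 51.9 RPM in Xinhai16 at that stage. miR6466 (0.000236) was lost in Hai1 and fell to 9.31 RPM in Xinhai16. miR8718 (0.000272) stood at 54.3 and then 117 RPM in Hai1 and had no read in Xinhai16 at squaring. miR5072 (0.000126) was read in Hai1 at squaring only (98.4 RPM) and in Xinhai16 at pre-squaring only (103 RPM).

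Against Huazhong 94-3130, 3 families passed, each with a group at 0, so their p-values likewise lend no support. miR5072 (adjusted p = 0.00035) was again read there at pre-squaring only, at 94.1 RPM. miR6033 (adjusted p = 6.67e-05) had no read there at pre-squaring and 73.4 RPM at squaring, against 76.7 and 76.3 RPM in Hai1. miR6466 (adjusted p = 3.56e-05) stood there at 17.3 and 22.8 RPM. The part of read naming in the families at 0 was not tested.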

How the results depend on the processing

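Counts of calls moved with the settings, in the order single names, families, difference from Xinhai16 and difference from Huazhong 94-3130. With DESeq2 there were 43 higher and 24 lower by the DEM threshold and 119 past 0.05 among names, 37 higher and 16 lower by the DEM threshold and 105 past 0.05 among families, 23 higher and 24 lower by the DEM threshold and 90 past 0.05 for Xinhai16, and 5 higher and 14 lower by the DEM threshold and 49 past 0.05 for Huazhong 94-3130. Without a filter there were 0 higher and 0 lower by the DEM threshold and 54 past 0.05 among names, 1 higher and 0 lower by the DEM threshold and 42 past 0.05 among families, 5 higher and 3 lower by the DEM threshold and 27 past 0.05 for Xinhai16, and 1 higher and 1 lower by the DEM threshold and 5 past 0.05 for Huazhong 94-3130. With all 36 libraries in 1 fit there were 1 higher and 5 lower by the DEM threshold and 42 past 0.05 among names, 3 higher and 3 lower by the DEM threshold and 38 past 0.05 among families, 5 higher and 4 lower by the DEM threshold and 34 past 0.05 for Xinhai16, and 0 higher and 1 lower by the DEM threshold and 4 past 0.05 for Huazhong 94-3130. With plain library totals there were 1 higher and 0 lower by the DEM threshold and 92 past 0.05 among names, 1 higher and 0 lower by the DEM threshold and 76 past 0.05 among families, 10 higher and 6 lower by the DEM threshold and 55 past 0.05 for Xinhai16, and 1 higher and 4 lower by the DEM threshold and 15 past 0.05 for Huazhong 94-3130.

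By limma there were 33 higher and 13 lower by the DEM threshold and 101 past 0.05 among names and 26 higher and 6 lower by the DEM threshold and 84 past 0.05 among families. Without predicted rows there were 12 higher and 9 lower by the DEM threshold and 102 past 0.05 among names and 10 higher and 3 lower by the DEM threshold and 84 past 0.05 among families. The most abundant name in place of each family gave 3 higher and 2 lower by the DEM threshold and 87 past 0.05. Leaving out 1 library gave 0 to 1 higher (miR167h, without pre-squaring replicate 1) and 0 to 0 lower names by the DEM threshold and 85 to 107 past 0.05, 0 to 0, 0 to 0 and 61 to 88 for families, 2 to 10, 4 to 8 and 32 to 56 for Xinhai16, and 0 to 2, 1 to 4 and 6 to 13 for Huazhong 94-3130. Every one of the 85 families kept its direction under DESeq2, limma, no filter, all 36 libraries, plain totals, the block and each library left out. None reversed with the most abundant name or with similar numbers joined, where 83 and 81 of them had a value. The call held in all 6 leave-one-out fits for 50 families. Of the 85, 25 were read at 1 stage only, so that their direction could not change, and some of these are among the 50. The cause of these moves was not tested, beyond the fewer samples or rows in a fit.

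The replicate numbers did not pair the samples (correlations of same-numbered deviations of -0.084, -0.18 and -0.088 over names and 0.059 to 0.07 over mRNA genes, where each sample matched its own number best). With the replicate number as a block there were 0 higher and 0 lower by the DEM threshold and 1 past 0.05 among names, 0 higher and 0 lower by the DEM threshold and 1 past 0.05 among families, 1 higher and 2 lower by the DEM threshold and 36 past 0.05 for Xinhai16, and 0 higher and 0 lower by the DEM threshold and 6 past 0.05 for Huazhong 94-3130. The log2 fold change of SEP3 mRNA was 2.31 in DESeq2 (adjusted p = 0.0064), 2.44 with the block (0.053) and 1.83 to 3.56 with a library left out; HB-8 gave -0.34 with the block and -0.57 to -0.2 with a library left out.

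Among the families and names described, the changes of sign (log2 fold change) were in ones without a call. With all 36 libraries in 1 fit the name miR156c-3p stood at -0.0778. With plain totals the family miR1448 stood at 0.0192, the family miR159 stood at 0.0208, the family miR2948 stood at 0.0249, the family miR2949 stood at 0.0744. By limma the family miR159 stood at 0.0198, the family miR2948 stood at 0.0229, the family miR2949 stood at 0.0807. Without predicted rows the family miR2949 stood at 0.0035. With similar numbers joined the family miR165 stood at -0.81. With a library left out the ranges across 0 were -0.10 to 0.0551 for the name miR156c-3p, -0.33 to 0.96 for the name miR8175, -0.25 to 0.0111 for the name miR168a-5p, -0.37 to 0.41 for the family miR165, -0.0893 to 0.0568 for the family miR2949, -0.34 to 0.95 for the family miR8175, -0.24 to 0.00445 for the family miR168. Depth limits the low families: 205 of the 600 families had no read in the 6 libraries and 267 had enough to be tested.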

Other observations

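The seedling libraries of Hai1, outside the comparison, are given as levels with no test (mean ± SD, n = 3). miR157 stood at 598014 ± 11745 RPM in seedlings, 43775 ± 4927 at pre-squaring and 91926 ± 10767 at squaring, so that its level at squaring was between those of the earlier stages. miR156 followed the same order, at 51059.6 ± 2699, 7678 ± 838 and 10048 ± 671 RPM. miR166 stood at 108529 ± 11388, 390647 ± 22828 and 239516 ± 5999.7 RPM, highest at pre-squaring. miR2118 (2392 ± 767 RPM in seedlings) and miR2111 (23.1 ± 1.66 RPM) were also highest at pre-squaring. miR2950 was at 387 ± 267 RPM in seedlings, close to its pre-squaring level, and miR858 at 13.9 ± 4.62 RPM.

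The next 6 families are outside the lists and were chosen after their values were seen. miR530 rose from 120.2, 119.8 and 113 RPM to 421, 314 and 273 RPM (log2 fold change 1.41, SE 0.23, adjusted p = 0.0087). miR8746 rose from 24.8 ± 2.27 to 182 ± 29.4 RPM (2.76, adjusted p = 0.0016) and miR8636 from 21 ± 3.64 to 163 ± 20.6 RPM (2.84, adjusted p = 0.0018). miR6106 rose from 274 ± 45.6 to 845 ± 41.3 RPM (1.51, adjusted p = 0.0018). miR4414 fell from 2914 ± 298 to 1214 ± 383 RPM (-1.38, adjusted p = 0.013; up to 0.055 without pre-squaring replicate 2 or 3) and miR5059 from 1811 ± 246 to 921 ± 186 RPM (-1.10, adjusted p = 0.0074).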
